A study of Mus musculus with 8 samples.

Results

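The Notch genes described here were the receptors Notch1, Notch2 and Notch3, the ligands Jag1, Jag2 and Dll1, the DNA-binding factor Rbpj and the target genes Hes1 and Hey1. They were chosen by name and were 9 of the 54838 genes in each count table. The RNA came from the epidermis of mouse skin, its outer epithelium, which was separated by trypsin. There were 4 groups with 2 biological replicates each, 8 libraries in all: Ovol1/2 iDKO at 25 DPI, control at 25 DPI, Ovol1/2 iDKO at 52 DPI and control at 52 DPI. The terms iDKO and DPI stand as in the labels. The sources used here do not give the alleles, the promoter that drives the deletion, the strain, the age or any pooling of animals. All 9 genes had counts in all 8 libraries and all 9 passed the filter on low counts, which left 17839 genes to be tested.

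Notch signalling passes between touching cells. A ligand of the Jagged or Delta family on one cell pulls on a Notch receptor on its neighbour, the receptor is cut by ADAM proteases and by gamma-secretase, and its inner part enters the nucleus, binds RBPJ and switches on repressor genes of the Hes and Hey families. In the epidermis Notch signalling is known for moving keratinocytes from the proliferating basal layer into the spinous layer, and its loss disturbs the skin barrier. Ovol1 and Ovol2, the genes named in the genotype, encode epithelial zinc finger proteins that act as transcriptional repressors, and the study relates them to plasticity of the epithelium, to barrier function and to inflammation.

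Library totals were 9824307 to 50711381 counts. The replicate number set the libraries apart: 49.8% to 49.97% of strand-assigned counts lay on the second strand in the replicate 1 libraries and 95.4% to 95.7% in the replicate 2 libraries. Libraries of the same time and number were therefore compared as well, iDKO with control, which gave 4 pairs. Ovol1 and Ovol2 were not lower in iDKO-labelled libraries. Ovol1 was at 148 and 204 CPM (counts scaled by TMM-adjusted library size) in iDKO-labelled libraries and at 135 and 36.3 CPM in control at 25 DPI, while it was at 99.0 and 193 CPM in iDKO-labelled libraries, against 62.7 and 157 CPM in control at 52 DPI. For Ovol2 the levels were 44.6 and 16.7 CPM in iDKO-labelled libraries and 24.9 and 11.6 CPM in control at 25 DPI, with 22.3 and 9.16 CPM against 21.3 and 7.52 CPM at 52 DPI. Counts over a whole gene do not show the loss of single exons, so the labels are unchecked by these genes and each direction below is that of iDKO-labelled libraries. Transcripts of the Y chromosome (Uty, Kdm5d, Ddx3y, Eif2s3y) were at 14.4 to 113 CPM in the libraries of 25 DPI and at 0 in those of 52 DPI, so sex and time cannot be told apart. All 7 basal keratinocyte markers were detected in every library, with a summed level of 25203 to 49828 CPM, and all 9 spinous and granular markers, at 3772 to 10780 CPM.

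No Notch gene was called different between iDKO-labelled libraries and control at either time. EdgeR's quasi-likelihood test with Benjamini-Hochberg adjustment gave all 9 genes an adjusted p of 1.00 at 25 DPI, at 52 DPI and across both times. The values showed 3 patterns: receptors and ligands that were all higher in the replicate 1 pair of 25 DPI, by 2.24-fold to 3.23-fold, Hes1 that was lower in iDKO-labelled libraries at 25 DPI, and the ligands Jag2 and Dll1 that were lower in them at 52 DPI. Over all genes edgeR called 0 of 17839 genes (0%) in each of the 25 DPI and 52 DPI comparisons, in the difference between them and across both times. At an unadjusted p under 0.05 it counted 75, 143, 139 and 130 genes in these 4 comparisons, and 0 of the 9 Notch genes in each. Without a block DESeq2 called 2, 1, 0 and 8 genes and limma-voom 0 in each, again with 0 of the 9. In simulated counts edgeR without a block recovered none of the changed genes at either time alone, so these p-values do not show that a gene was unchanged.

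Per kilobase of exon, which allows levels to be compared between genes, Jag2 and Hes1 were the most abundant of the 9 transcripts. The median over the 8 libraries was 72.2 CPM per kilobase for Jag2 (range 10.5 to 88.3) and 71.2 for Hes1 (29.9 to 120). Jag1 followed with a median of 37.9 CPM per kilobase (6.34 to 43.9), Notch1 with 25.4 (4.15 to 47.9) and Dll1 with 16.9 (3.38 to 31.9). Notch3 and Notch2 had medians of 12.3 (1.89 to 32.2) and 9.87 CPM per kilobase (1.93 to 21.2), and Rbpj one of 4.96 (2.02 to 7.38). The order was not fixed, since Jag2 took ranks 1 to 5 and Notch3 ranks 4 to 8, and down to Rbpj the ranges of neighbours in this order overlapped. Hey1 was the lowest of the 9 in every library, at 0.21 to 0.941 CPM per kilobase.

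**Figure D1:**
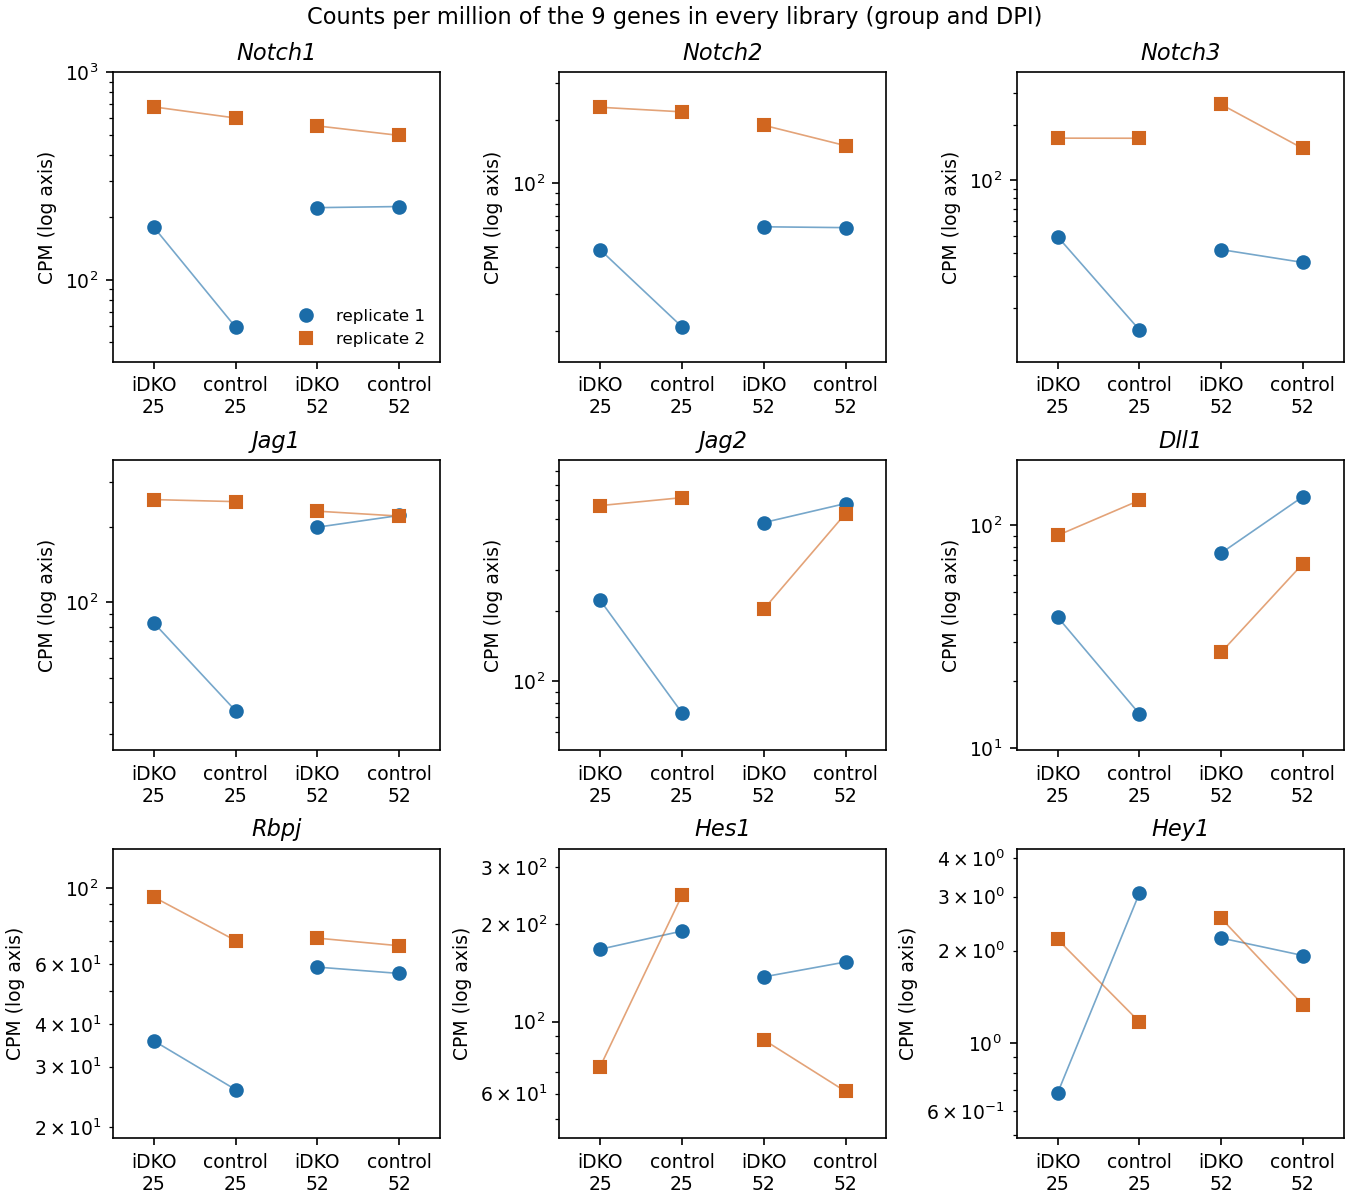
CPM (log axis) of the 9 Notch genes in each library, with groups on the horizontal axis, circles for replicate 1 and squares for replicate 2, and lines joining the libraries of a pair. The receptors lie higher in replicate 2 at both times, control replicate 1 at 25 DPI is the lowest library for the 3 receptors, the 3 ligands and Rbpj, and Hes1 lies lower in both iDKO-labelled libraries at 25 DPI.

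Notch1 (ENSMUSG00000026923, GRCm38 chr2:26457903-26516663, minus strand), the main Notch receptor of mouse epidermis, was at 179 and 681 CPM in replicates 1 and 2 of iDKO-labelled libraries, against 59.1 and 602 CPM in control at 25 DPI. The 52 DPI levels were 223 and 552 CPM in iDKO-labelled libraries, against 225 and 496 CPM in control. The groups overlapped at both times, and within a group the replicate 2 library was always the higher one. The iDKO library was 3.03-fold the control library in the replicate 1 pair of 25 DPI, and the 3 other pairs lay between 0.988-fold and 1.13-fold. The log2 fold change by edgeR was 0.38 (SE 1.13) at 25 DPI and 0.10 (SE 1.12) at 52 DPI.

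Notch2 (ENSMUSG00000027878, chr3:98013527-98150361, plus strand), a receptor that shares the domain plan of Notch1, was at 48.4 and 229 CPM in iDKO-labelled libraries, against 20.9 and 218 CPM in control, at 25 DPI. Levels at 52 DPI were 62.1 and 188 CPM in iDKO-labelled libraries, against 61.6 and 151 CPM in control. Its pair ratios were 2.32 and 1.05 at 25 DPI and 1.01 and 1.25 at 52 DPI, all on the higher side and 2 of them by at most 5%. The fitted log2 fold changes were 0.22 (SE 1.18) at 25 DPI and 0.24 (SE 1.18) at 52 DPI.

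Notch3 (ENSMUSG00000038146, chr17:32120820-32166852, minus strand), a receptor also known from vascular smooth muscle, was at 49.4 and 170.4 CPM in iDKO-labelled libraries, against 15.3 and 170.15 CPM in control, at 25 DPI. Later, at 52 DPI, values were 41.9 and 261 CPM in iDKO-labelled libraries, against 35.7 and 149.6 CPM in control. The iDKO library of replicate 2 at 52 DPI held the highest level of the 8, while the groups still overlapped because both replicate 1 libraries were low. The pair ratios were 3.23 and 1.00 at 25 DPI and 1.18 and 1.74 at 52 DPI, and the fitted log2 fold change at 52 DPI was 0.71 (SE 1.31), or -1.13 without iDKO replicate 2 and 2.10 without control replicate 2 of that time. The summed level of 5 pericyte and smooth muscle markers, 2 of them detected in every library and none at 0 throughout, was 53.9 CPM in that iDKO library and 178 CPM in its control. Other lists were higher in the same iDKO library: 6 dermal fibroblast markers, 5 of them detected in every library, summed to 117 CPM and to 16.8 CPM in its control, and 7 T cell markers to 557 and 144 CPM. None of these markers was at 0 in all libraries, and their part in the Notch3 value was not tested. In a fit with the replicate number within each time as a block, called the paired fit here, Notch3 across both times had a fitted log2 fold change of 0.66 (SE 0.28) by edgeR and was not called (adjusted p = 0.996).

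Jag1 (ENSMUSG00000027276, chr2:137081456-137116644, minus strand), a Jagged ligand, was at 82.7 and 256 CPM in iDKO-labelled libraries, against 36.9 and 251 CPM in control, at 25 DPI. In epidermis of 52 DPI it measured 199 and 230.3 CPM in iDKO-labelled libraries, against 221 and 220.2 CPM in control, so the 4 later libraries lay close together. The pair ratios were 2.24 and 1.02 at 25 DPI and 0.898 and 1.05 at 52 DPI, with fitted log2 fold changes of 0.23 (SE 0.90) and -0.04 (SE 0.90).

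Jag2 (ENSMUSG00000002799, chr12:112907819-112929776, minus strand), the other Jagged ligand, known from the basal layer, was at 222 and 568 CPM in iDKO-labelled libraries, against 73.0 and 615 CPM in control, at 25 DPI. The later time gave 480.3 and 204 CPM in iDKO-labelled libraries, against 580.2 and 525 CPM in control. At this later time both iDKO-labelled libraries lay below both control libraries, and the replicate 2 pair carried most of the distance, with a ratio of 0.388 against 0.828 in the replicate 1 pair. The fitted log2 fold change at 52 DPI was -0.69 (SE 0.99), -0.19 without iDKO replicate 2 and -1.45 without iDKO replicate 1 of that time.

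Dll1 (ENSMUSG00000014773, chr17:15367354-15376872, minus strand), a Delta ligand that in human epidermis marks basal cells, was at 38.8 and 90.1 CPM in iDKO-labelled libraries, against 14.3 and 129 CPM in control, at 25 DPI. The 52 DPI values were 75.0 and 26.9 CPM in iDKO-labelled libraries, against 134 and 67.2 CPM in control. It was lower in the iDKO library of 3 of the 4 pairs, with ratios of 0.696 at 25 DPI and 0.558 and 0.4 at 52 DPI, and 2.72-fold higher in the replicate 1 pair of 25 DPI. The groups at 52 DPI overlapped, since iDKO replicate 1 lay above control replicate 2. EdgeR gave -0.98 (SE 1.03) at 52 DPI, -0.40 without control replicate 1 and -1.91 without iDKO replicate 1. In the paired fit the value was -1.08 (SE 0.43, adjusted p = 1.00 by edgeR), and DESeq2's paired fit gave -1.10 (SE 0.46, adjusted p = 0.628).

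Jag2 and Dll1 moved together across libraries, and the sequences before their start sites are shown for that reason. After centring each replicate number on its mean, the log2 CPM of the pair correlated at 0.97 over the 8 libraries, those of Notch1 and Notch2 at 0.98 and those of Jag1 and Rbpj at 0.95. The RefSeq table of GRCm38.p6 gave 9 promoters for 7 of the 9 genes, with 2 each for Dll1 and Rbpj and none for Hes1 and Hey1. The 250 bases before the start, in lower case on the minus strand, are chr12:112929496-112929745 for Jag2, with 87.2% G or C, and chr17:15375824-15376073 and chr17:15376933-15377182 for Dll1, with 64.0% and 56.0%.

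Jag2: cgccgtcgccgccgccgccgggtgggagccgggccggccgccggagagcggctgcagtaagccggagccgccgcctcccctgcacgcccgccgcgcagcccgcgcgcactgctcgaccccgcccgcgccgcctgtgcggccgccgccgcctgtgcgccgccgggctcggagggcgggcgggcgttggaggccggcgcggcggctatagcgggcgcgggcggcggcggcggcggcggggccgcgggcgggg
Dll1, promoter 1: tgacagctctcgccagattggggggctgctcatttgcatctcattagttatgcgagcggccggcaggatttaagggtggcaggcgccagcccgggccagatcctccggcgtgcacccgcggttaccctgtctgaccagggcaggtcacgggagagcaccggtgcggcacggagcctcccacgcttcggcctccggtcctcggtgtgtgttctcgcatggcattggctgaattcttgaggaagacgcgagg
Dll1, promoter 2: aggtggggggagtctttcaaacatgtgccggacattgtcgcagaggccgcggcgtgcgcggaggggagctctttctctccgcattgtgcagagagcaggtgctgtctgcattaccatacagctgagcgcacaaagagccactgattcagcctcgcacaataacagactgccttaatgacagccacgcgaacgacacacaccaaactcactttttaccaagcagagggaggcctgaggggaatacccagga

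The core letters bound by RBPJ, GTGGGAA, and by OVOL proteins, CCGTTA, were searched on both strands of each window from 250 bases before to 50 bases after the start. Neither was found in the 9 promoters of 7 Notch genes, and nothing in the windows above is therefore in capitals. The target genes Hes1 and Hey1 had no promoter entry and were not searched. Of all 32851 promoters listed there, 6.38% held the RBPJ core and 2.76% the OVOL core, so no match in 9 windows is a description of these windows alone.

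Rbpj (ENSMUSG00000039191, chr5:53466152-53657362, plus strand), the DNA-binding partner of all Notch receptors, was at 35.7 and 94.1 CPM in iDKO-labelled libraries, against 25.7 and 70.2 CPM in control, at 25 DPI. Later levels, at 52 DPI, came to 58.7 and 71.4 CPM in iDKO-labelled libraries, against 56.2 and 67.8 CPM in control. Its ratios were 1.39 and 1.34 in the pairs of 25 DPI and 1.04 and 1.05 in those of 52 DPI, the most even of the 9 genes. The log2 fold change at 25 DPI was 0.44 (SE 0.66), and 0.45 (SE 0.19) in the paired fit, also uncalled (edgeR, adjusted p = 0.731).

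Hes1 (ENSMUSG00000022528, chr16:30064384-30067796, plus strand), a repressor gene that Notch activates, was at 167 and 72.7 CPM in iDKO-labelled libraries, against 190.1 and 245 CPM in control, at 25 DPI. Measured at 52 DPI, levels were 137 and 87.9 CPM in iDKO-labelled libraries, against 153 and 61.0 CPM in control. Both iDKO-labelled libraries lay below both control libraries at 25 DPI, by little in replicate 1 (ratio 0.879) and to 0.297 of control in replicate 2, while the pairs of 52 DPI pointed apart (0.9 and 1.44). In the replicate 1 pair of 25 DPI Hes1 lay below control while the receptors were 2.32-fold to 3.23-fold control. The log2 fold change at 25 DPI was -0.86 (SE 0.66), -0.37 without iDKO replicate 2 and -1.53 without iDKO replicate 1 of that time. In the paired fit it was -0.97 (SE 0.40, edgeR adjusted p = 0.731) and in DESeq2's paired fit -0.98 (SE 0.42, adjusted p = 0.424). The summed level of 8 immediate-early and dissociation genes, all detected in every library, was 14203 CPM in iDKO replicate 2 and 19810 CPM in its control, and 27271 CPM in iDKO replicate 1 and 21354 CPM in its control, and its part in the Hes1 values was not tested.

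Hey1 (ENSMUSG00000040289, chr3:8663359-8667256, minus strand), the other target gene, was too low for a firm comparison. It had 6 and 60 reads in iDKO-labelled libraries and 47 and 59 in control at 25 DPI, and 70 and 39 reads in iDKO-labelled libraries and 52 and 17 in control at 52 DPI. The exact Poisson interval at 95% confidence, which covers counting error only, ran from 2.2 to 13.1 for the count of 6. In CPM it was at 0.684 and 2.18 in iDKO-labelled libraries and at 3.07 and 1.17 in control at 25 DPI, and at 2.2 and 2.55 in iDKO-labelled libraries and at 1.93 and 1.33 in control at 52 DPI. Its pair ratios of 0.228 and 1.84 at 25 DPI pointed apart, and both iDKO-labelled libraries lay above both control libraries at 52 DPI. Its log2 fold changes, -0.53 (SE 0.87) at 25 DPI and 0.54 (SE 0.87) at 52 DPI, were not called.

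**Figure D2:**
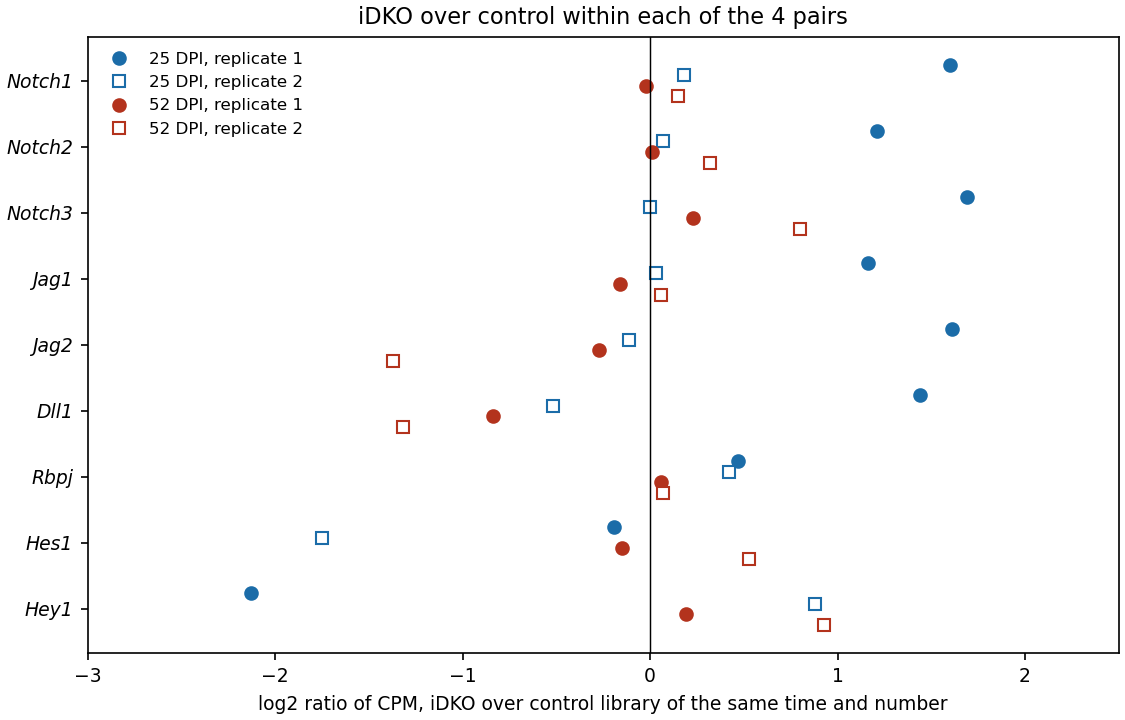
Log2 ratio of CPM, iDKO library over the control library of the same time and replicate number (horizontal axis), for the 9 Notch genes (rows); blue marks are 25 DPI, red marks 52 DPI, filled circles replicate 1 and open squares replicate 2. The 6 receptors and ligands are at 1.16 to 1.69 in the replicate 1 pair of 25 DPI, and Dll1 and Jag2 are at -1.32 and -1.37 in the replicate 2 pair of 52 DPI.

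The directions of the 9 genes were then set against those of all tested genes. Of the 9 Notch genes 5, the 3 receptors, Jag1 and Rbpj, were higher in both pairs at 25 DPI, as were 25.5% of all tested genes, and 1, Hes1, was lower in both pairs, as were 26% of all. Hes1 was the 1 member with both iDKO-labelled libraries below both control libraries at 25 DPI, an arrangement shared by 5.15% of tested genes, and 0 members had the opposite arrangement, which 5.39% showed. At 52 DPI Notch2, Notch3, Rbpj and Hey1 were higher in both pairs (27.8% of all genes) and Jag2 and Dll1 lower in both (30.5%). Groups did not overlap for Jag2 at 52 DPI in the lower direction (10.2% of all genes) or for Hey1 in the higher (11.9%). Notch2, Notch3 and Rbpj were higher in all 4 pairs, although the ratio of Notch3 in the replicate 2 pair of 25 DPI was 1.00. This was 3 of 9 genes against 6.73% of all, and 0 of 9 were lower in all 4 against 6.71%. Over libraries, centred by replicate number, Notch2 correlated at 0.9 with Rbpj and at 0.78 with Notch3. Notch3 and Rbpj correlated less, at 0.56. The 3 genes are therefore not separate observations.

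The receptors differed more between replicate numbers than between genotypes. Averaged over the 4 groups, the replicate 2 library was 5.62-fold the replicate 1 library for Notch3, 4.37-fold for Notch2 and 3.81-fold for Notch1. Of all tested genes 94.5%, 92.2% and 90.5% had a smaller difference in that direction than these receptors. The ratio was 2.22 for Jag1, 1.80 for Rbpj, 1.70 for Jag2 and 1.39 for Dll1, against 0.615 for Hes1 and 0.992 for Hey1. For the ligands the time mattered as well: in control at 25 DPI the replicate 2 library was above the replicate 1 library by 2.77, 3.08 and 3.18 on the log2 scale for Jag1, Jag2 and Dll1, while at 52 DPI the difference was -0.01, -0.14 and -1.0 in control. For 3 genes part of the counting depended on strand: in the replicate 2 libraries the deposited count without regard to strand was 0.807 to 0.861 of the second-strand count for Notch1, 0.907 to 0.915 for Notch3 and 0.798 to 0.841 for Dll1. Their exons share 1482, 488 and 867 bases with genes on the opposite strand, and for the 6 other genes the ratio was between 1.00 and 1.01.

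The estimates at 25 DPI turned on single libraries. Control replicate 1 of that time held the lowest level of the 8 libraries for Notch1, Notch2, Notch3, Jag1, Jag2, Dll1 and Rbpj. Without it the log2 fold changes at 25 DPI were -0.50 for Notch1, -0.66 for Notch2, -0.65 for Notch3, -0.59 for Jag1, -0.66 for Jag2, -1.03 for Dll1 and -0.13 for Rbpj. Without control replicate 2 the same genes were at 1.37 to 2.90, and without iDKO replicate 2 at -1.28 to -0.41. Control replicate 1 also stood apart in markers of other cells. Its 5 melanocyte markers summed to 363 CPM, against 29.5 to 45.2 CPM in the 7 other libraries, and its 7 T cell markers to 657 CPM, against 144 to 557 CPM. Its basal keratinocyte sum was 35551 CPM, against 48034 CPM in the iDKO library of its pair. No marker of these 3 lists was at 0 in any library, and the part of these cells in the Notch values was not tested. In whole tissue, fewer cells of a type and less RNA per cell cannot be told apart.

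**Figure D3:**
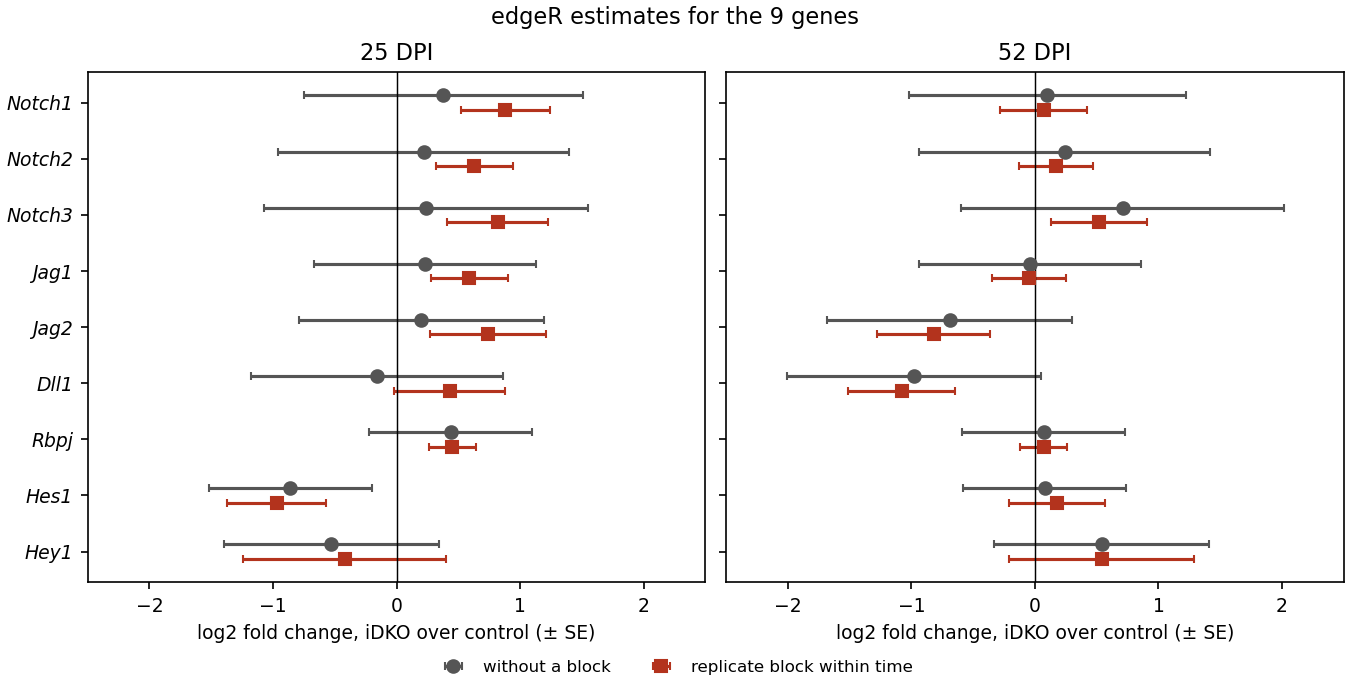
EdgeR log2 fold change of iDKO over control with its standard error (horizontal axis) for the 9 Notch genes (rows) at 25 DPI and 52 DPI, grey circles without a block and red squares in the paired fit, which has the replicate block within time. Without a block the standard errors of the 3 receptors span 1.12 to 1.31, and Hes1 at 25 DPI and Dll1 at 52 DPI lie at -0.97 and -1.08 in the paired fit.

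The paired fit gave smaller standard errors for the 9 genes, and with DESeq2 more genes were called. DESeq2's paired fit called 103 genes at 25 DPI (0.577% of those tested), 35 at 52 DPI (0.196%), 39 in the difference between the times (0.219%) and 73 across both times (0.409%), and 0 of the 9 Notch genes in each. In simulated counts of the 25 DPI, 52 DPI and both-times comparisons, that fit made more false calls than its threshold allows. There 28.1%, 30.3% and 22.5% of its calls were false. EdgeR's paired fit also exceeded the threshold, by less, with 7.8%, 8.9% and 8% of its calls false. At 25 DPI the same fit by edgeR gave Notch1 0.88 (SE 0.36), Notch3 0.82 (SE 0.41), Jag2 0.74 (SE 0.47), Notch2 0.63 (SE 0.31), Jag1 0.59 (SE 0.31) and Dll1 0.43 (SE 0.45), with adjusted p of 0.731 to 0.818. Dll1 thus changed sign from -0.16 (SE 1.02) without the block. EdgeR's paired fit counted 1162 genes at an unadjusted p under 0.05 at 25 DPI, Notch1 and Hes1 among them, and 764 at 52 DPI, Dll1 among them, and it called 0 genes at both times. Over the 9 Notch genes 6 were higher and 3 lower at 25 DPI without the block, with a median log2 fold change of 0.22 against -0.03 over all tested genes, and 6 and 3 at 52 DPI, with 0.08 against -0.01.

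The iDKO values of Jag2, Dll1 and Hes1 differed between the times in direction or size, without passing the test. The difference of the 52 DPI minus the 25 DPI effect was -0.89 (SE 1.40) for Jag2, -0.83 (SE 1.44) for Dll1 and 0.94 (SE 0.93) for Hes1 (edgeR, adjusted p = 1.00 for each). In the paired fit it was -1.56 (SE 0.66) for Jag2, -1.50 (SE 0.63) for Dll1 and 1.16 (SE 0.55) for Hes1, with an edgeR adjusted p of 0.793 for each. DESeq2's paired fit gave adjusted p of 0.384, 0.432 and 0.649. Without 1 library the difference in the fit without a block was -3.16 to -0.04 for Jag2, -3.19 to 0.05 for Dll1 and 0.44 to 1.75 for Hes1. For Jag2 and Dll1 the first value of each range came without control replicate 2 of 25 DPI and the second without control replicate 1 of that time.

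The lower Jag2 and Dll1 of iDKO replicate 2 at 52 DPI came with a lower level of basal keratinocyte genes. The summed CPM of Krt5, Krt14, Krt15, Itga6, Itgb4, Itgb1 and Col17a1 was 25203 in that library, the lowest of the 8, and 46743 in its control, and it was 45675 in iDKO replicate 1 and 49828 in its control. As a ratio to that sum, a denominator chosen after seeing the data, Jag2 was at 0.721 and Dll1 at 0.743 of control in the replicate 2 pair, against 0.388 and 0.4 in CPM. In the replicate 1 pair the ratios moved little, to 0.905 for Jag2 and 0.607 for Dll1. By the same ratio the receptors of the replicate 2 pair were 2.07-fold (Notch1), 2.32-fold (Notch2) and 3.22-fold control (Notch3), and Jag1 was 1.94-fold. By either measure the ratios of Jag2 and Dll1 were below 1 in both pairs. The basal sum holds Col17a1, which followed Jag2 closely over the libraries (r = 0.998), so it is not independent of Jag2. Summed CPM of the 9 spinous and granular markers was also lower in iDKO replicate 2, at 6065 against 9539 in its control. That sum was 4289 in iDKO replicate 1 and 3772 in its control. The part of cell composition in the values was not tested. At 25 DPI the replicate 1 pair kept ratios of 1.65 to 2.4 for the 6 receptors and ligands, against 2.24 to 3.23 in CPM.

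**Figure D4:**
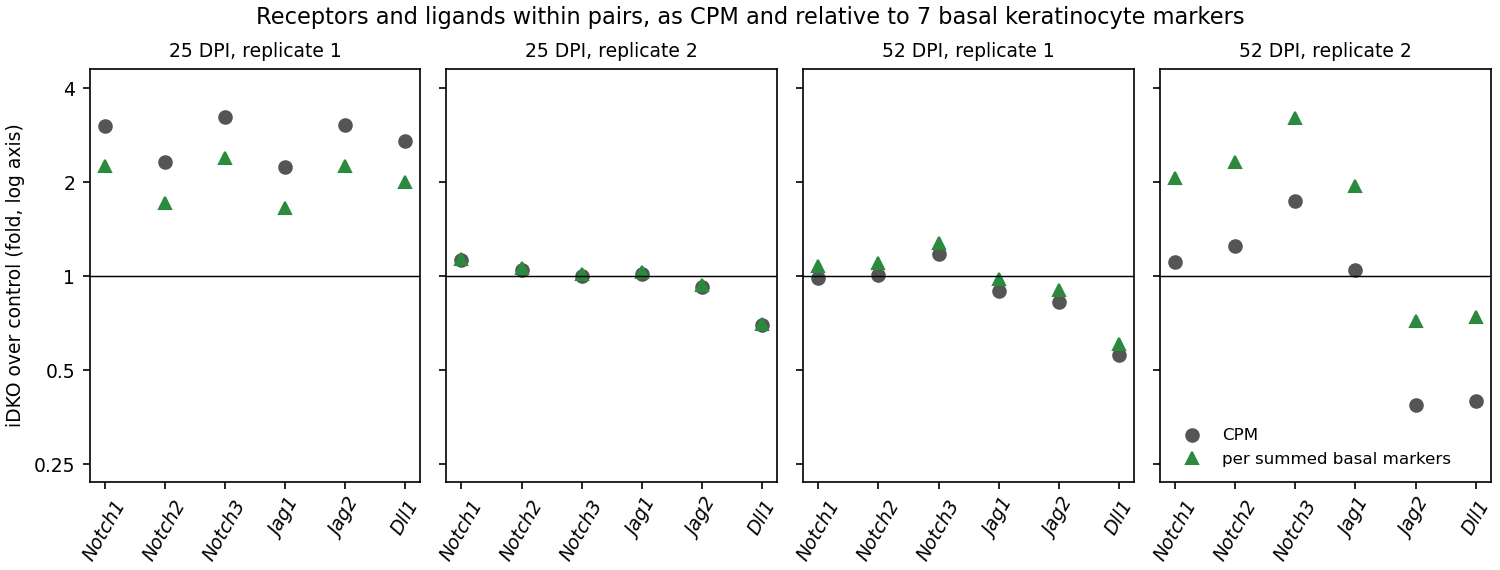
Fold of iDKO over control (log axis) for the receptors and ligands in each of the 4 pairs, as CPM (grey circles) and per summed CPM of 7 basal keratinocyte markers (green triangles). In the replicate 2 pair of 52 DPI, Jag2 and Dll1 lie at 0.388 and 0.4 in CPM and at 0.721 and 0.743 per basal marker, while Notch3 lies at 1.74 and 3.22.

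The proportions of receptors and of ligands were then set against each other, per kilobase. Jag2 over Jag1 was 2.02 and 0.74 in iDKO-labelled libraries at 52 DPI and 2.19 and 2.00 in control, and between 1.65 and 2.25 in the 4 libraries of 25 DPI. Dll1 over Jag1 was 0.521 and 0.161 in iDKO-labelled libraries at 52 DPI and 0.839 and 0.422 in control. Notch3 over Notch1 was 0.331 and 0.831 in iDKO-labelled libraries and 0.278 and 0.530 in control at 52 DPI, while at 25 DPI it was at 0.440 to 0.497 in all 4 libraries. The 3 ligands summed over the 3 receptors came to 4.55 and 0.85 in iDKO-labelled libraries at 52 DPI, against 5.90 and 1.92 in control, and at 25 DPI to 2.39 and 1.63 in iDKO-labelled libraries, against 2.53 and 1.94 in control. In CPM per kilobase, summed ligands therefore exceeded summed receptors in 7 of the 8 libraries, the exception being iDKO replicate 2 at 52 DPI. The size of this ratio depends on the exon lengths used and on counts taken without regard to strand. In replicate 2 libraries those counts were below the second-strand counts for Notch1, Notch3 and Dll1. The iDKO library had the lower ligand to receptor ratio in each of the 4 pairs, and the higher Notch3 to Notch1 ratio in both pairs of 52 DPI.

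The libraries also show which genes followed each Notch gene most closely, among 11624 protein-coding genes (11625 for Hey1). Jag2 was nearest to Col17a1 (r = 0.998), a collagen of the hemidesmosome, and Trp63 (0.997), the master transcription factor of stratified epithelia. Dll1 was nearest to Arhgap22 and Tppp (0.995 each), and Jag1 to Pknox1 and Icmt (0.998 each). Notch1 was nearest to Psme4 (0.995) and Klhdc10 (0.993), Notch2 to Zfp142 (0.995) and Atxn2l (0.992), and Rbpj to Zfp217 (0.996) and Jak1 (0.993). Notch3 was less tightly matched, with Dhcr7, an enzyme of cholesterol synthesis, at 0.973 and Ppp1r37 at 0.969, and correlated at only 0.32 with Dll1. Hes1 correlated at -0.29 to 0.12 with the 7 receptors, ligands and Rbpj, and its nearest genes were Zfp791 (0.937) and Fkbp5 (0.932), a target of the glucocorticoid receptor. Hey1, near its counting floor, was nearest to Wdpcp (0.962) and Dapk1 (0.956). These are Pearson correlations of log2 CPM centred by replicate number over 8 libraries, which share their depth and cell makeup. The nearest genes were picked as the best of all these candidates, which favours high values of r. Control replicate 1 of 25 DPI held the lowest level of the receptors, ligands and Rbpj. Values of r without that library were not computed, here or for the correlations between Notch genes above.

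Between the times, 52 DPI against 25 DPI over both genotypes, Jag1 was the 1 Notch gene called in any fit. It was at 199 and 230.3 CPM in iDKO and 221 and 220.2 CPM in control at 52 DPI, and at 82.7 and 256 CPM in iDKO and 36.9 and 251 CPM in control at 25 DPI, so the later libraries lay inside the range of the earlier ones. EdgeR gave a log2 fold change of 0.48 (SE 0.59, adjusted p = 0.899), with 4 genes called in all (0.0224%) and 720 at an unadjusted p under 0.05, 0 of them Notch genes. With the replicate number as a block edgeR gave Jag1 0.83 (SE 0.48, adjusted p = 0.534) and in the paired fit 0.85 (SE 0.24, adjusted p = 0.0891). DESeq2's paired fit gave 0.82 (SE 0.27) and called it (adjusted p = 0.0193), among 2727 genes called (15.3%). That fit measures error inside pairs and leaves the spread between the pairs of 1 time out, so its p-values for time are too small. Without control replicate 2 or iDKO replicate 2 of 25 DPI, or control replicate 1 or 2 of 52 DPI, its call was lost (adjusted p = 0.0902, 0.181, 0.313 and 0.1). Hes1 had a fitted log2 fold change of -0.56 (SE 0.45) and the 7 other genes of -0.16 to 0.24, with a median of 0.17 over the 9 against -0.12 over all tested genes.

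Of 56 other genes of the pathway, 49 passed the filter on low counts. Dll3, Dll4, Dtx1, Hes2, Hes5, Hes7 and Heyl did not. Heyl, named here after its values were seen, had 2 and 76 reads in iDKO-labelled libraries at 52 DPI and 4 and 0 in control. EdgeR called 0 of the 49 in any comparison and DESeq2's paired fit 0 in the genotype comparisons. At 25 DPI 32 were higher and 17 lower, with a median log2 fold change of 0.04 against -0.03 over all genes, and at 52 DPI 22 were higher and 27 lower, with -0.04 against -0.01. Nuclear co-factors and genes of inhibition and turnover each had 7 of 8 members higher at 25 DPI (medians 0.28 and 0.18), and 3 and 4 of 8 higher at 52 DPI (-0.05 and 0.12), where 47.5% of all tested genes were higher at 25 DPI and 48.4% at 52 DPI. In the replicate 1 pair of 25 DPI, which holds the control library that stood apart, 7 of 8 were higher in each list, and in the replicate 2 pair 5 and 4 of 8. The receptor cleavage machinery had 4 of 9 members higher at both times (-0.06 and -0.07). Keratinocyte genes linked to Notch had 5 of 8 higher at 25 DPI (0.03) and 2 of 8 at 52 DPI (-0.41). Furin, which cuts the receptor during its maturation, Mib1, a ubiquitin ligase of ligand endocytosis, and Maml1 and Kat2b, co-activators of the Notch complex, were higher in all 4 pairs. These 4 genes were 8.16% of the 49, against 6.73% of all tested genes, and 0 of the 49 were lower in all 4, against 6.71%.

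**Figure D5:**
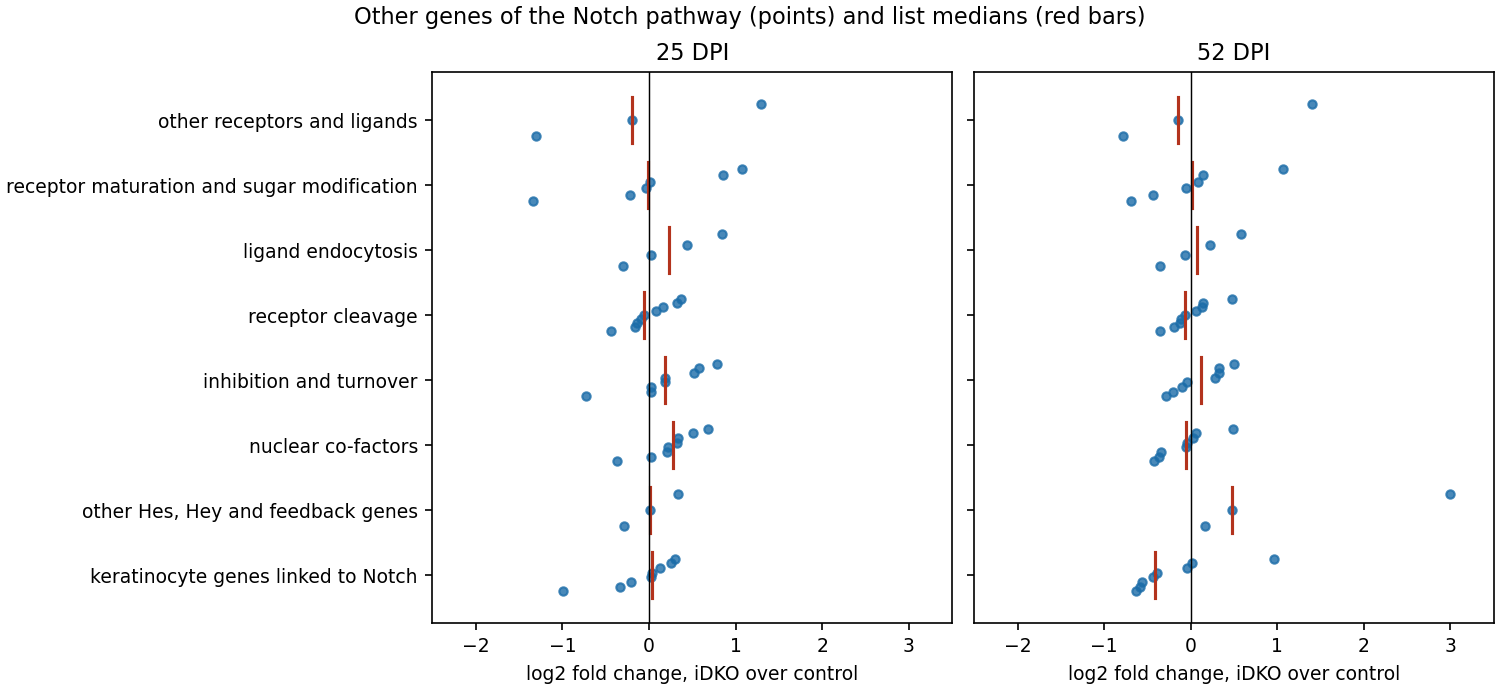
EdgeR log2 fold change of iDKO over control at 25 DPI and 52 DPI (horizontal axes) for the 49 tested pathway genes (points), by list (rows), with list medians as red bars. Most points lie close to 0, and the point at 3.0 at 52 DPI is Hey2, which rests on few reads.

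The fringe enzymes Mfng and Lfng, which add sugars to Notch receptors and so change their response to ligands, had the smallest unadjusted p of the 49 genes at 25 DPI and in the difference between the times. Mfng was at 2.28 and 2.76 CPM in iDKO-labelled libraries, against 8.37 and 4.49 CPM in control, at 25 DPI, while it was at 1.79 and 3.20 CPM in iDKO-labelled libraries, against 1.56 and 0.784 CPM in control at 52 DPI. It was lower in both pairs at 25 DPI and higher in both at 52 DPI, with log2 fold changes of -1.34 (SE 0.72) and 1.07 (SE 0.73). Lfng went the other way: it was at 48.0 and 41.5 CPM in iDKO-labelled libraries, against 12.3 and 29.9 CPM in control, at 25 DPI, while it was at 64.7 and 23.5 CPM in iDKO-labelled libraries, against 80.8 and 61.0 CPM in control at 52 DPI. Its log2 fold change at 25 DPI was 1.08 (SE 0.65), or 0.54 to 1.89 without 1 library. The difference between the times was 2.41 (SE 1.03) for Mfng and -1.77 (SE 0.92) for Lfng, and neither was called (edgeR, adjusted p = 1.00 each; DESeq2's paired fit, 0.403 and 0.122). Mfng was low throughout, with 10 to 226 reads per library.

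Other pathway genes with the smallest p were also uncalled. Dtx4, a Deltex ubiquitin ligase, had a fitted log2 fold change of -0.73 (SE 0.52) at 25 DPI, or -1.18 to -0.09 without 1 library. Ivl, which encodes involucrin of the cornified envelope, was at 19.0 and 21.0 CPM in iDKO-labelled libraries, against 66.9 and 12.6 CPM in control, at 25 DPI, while it was at 25.9 and 40.2 CPM in iDKO-labelled libraries, against 19.8 and 14.2 CPM in control at 52 DPI. Its value at 25 DPI, -0.99 (SE 0.75), was 0.63 without control replicate 1. Wnt4, a Wnt ligand, had a fitted log2 fold change of -0.63 (SE 0.48) at 52 DPI, or -0.96 to -0.36 without 1 library. Hey2, a relative of Hey1, had one of 3.0 (SE 1.75) at 52 DPI, or 1.8 to 6.84 without 1 library. The value of Hey2 came from 9 and 13 reads in iDKO-labelled libraries and 0 and 2 in control, and its size depends on the prior count of the fit. Across both times Neurl1a, a ubiquitin ligase of ligand endocytosis, had 0.71 (SE 0.51) and Dlk2, a Delta-like protein, -0.49 (SE 0.50), which was -0.93 to -0.15 without 1 library. Notch4, a receptor of blood vessels, had a difference between the times of 2.70 (SE 1.57), uncalled and from 2 to 35 reads per library.

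For 52 DPI against 25 DPI DESeq2's paired fit called 8 of the 49 pathway genes (16.3%, against 15.3% of all tested genes). Furin (log2 fold change 1.09), Adam10 (0.76), the ADAM protease that cuts Notch, Itch (0.68), a ubiquitin ligase, and Mib1 (0.62) were higher at 52 DPI. Tslp (-1.41), an epithelial cytokine, Psenen (-0.81), a gamma-secretase subunit, Cdkn1a (-0.69), a cell cycle inhibitor, and Krt10 (-0.67), a keratin of spinous cells, were lower. EdgeR called none of these 8 with or without that block, and each lost its DESeq2 call without at least 1 of the libraries. Dlk1, a Delta-like protein, had a fitted log2 fold change of 3.23 (SE 1.21) by edgeR from 1 to 57 reads per library (adjusted p = 0.862).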

How the data were processed

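Per the labels' protocols, Trizol RNA of trypsin-isolated mouse epidermis was made into libraries with the Clontech low-input SMART-seq v4 chemistry. The submitters' processing notes name STAR 2.5.2a, Trimmomatic 0.35, FastQC 0.11.9 and DESeq2 1.24.0, and the builds GRCm38 and mm10, without settings or annotation. For each library the authors deposited a table of raw read counts by gene with 3 columns as STAR writes them. Analyses used the first of these, which ignores strand. Identifiers were matched to GENCODE names for 54809 of 54838 genes.

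EdgeR 4.0.16 (R 4.3.3) was run on all 8 libraries with filterByExpr, TMM scaling and a quasi-likelihood fit, with 1 mean per group (4 residual degrees of freedom) or with time and genotype (5). The paired fit of the iDKO effect at each time left only 2. P-values were adjusted by Benjamini-Hochberg over 17839 genes and called under 0.05. They measure the spread between the biological replicates, which also differ in the share of counts on the second strand. The labels name 1 library chemistry and do not explain that difference. Alternatives were DESeq2 1.42.0, limma-voom (limma 3.58.1), RLE factors, no filter, second-strand counts, replicate blocks, the libraries of 1 time alone and leaving out each library. The 1-library omissions for DESeq2 with the block and the ratio to basal markers were chosen after seeing the data. Deviations from group means correlated at 0.391 to 0.763 between same-numbered libraries in the 6 possible combinations of groups, and on that ground the numbers were treated as pairing the libraries. Pathway genes named were, per comparison, the 4 with the smallest unadjusted p, and those named for other reasons are marked or were called. Log ratios of pairs used a prior count of 0.5. Simulated counts were drawn for the tested genes from their fitted means and spread, with 200 genes changed by known folds. The genes and lists were chosen with earlier results of these data known.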

Additional observations from a re-analysis of the deposited data

How the results depend on the processing

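The number of genes called moved with the tool, and no alternative called a Notch gene between genotypes. Without a filter on low counts edgeR called 8 genes at 25 DPI, 25 at 52 DPI, 19 in the difference, 16 across both times and 184 between the times. DESeq2 called 2, 1 and 8 at 25 DPI, at 52 DPI and across both times, and 72 between the times. With the replicate number as a block within time (the paired fit) DESeq2 called 103, 35, 39, 73 and 2727 in the same 5 comparisons, of which 1 between the times was a Notch gene, Jag1. EdgeR in the paired fit called 1 gene across both times and 7 between the times. Without a block edgeR called 4 genes between the times, and 1 there with second-strand counts for the replicate 2 libraries. Without 1 library it called 0 to 2 between the times. The block changed no other call of a Notch gene. 

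Some directions of uncalled values turned. Dll1 at 25 DPI was 0.48 by limma-voom and 0.43 with the replicate block within time by edgeR and by DESeq2. In the difference between the times, limma-voom, edgeR with the replicate block, edgeR with the replicate block within time and DESeq2 with that block gave -0.49, -0.37, -0.46 and -0.47 for Notch2 and -0.32, -0.29, -0.30 and -0.32 for Notch3. For 52 over 25 DPI the same 4 gave 0.52, 0.36, 0.37 and 0.34 for Notch1 and 0.33, 0.24, 0.25 and 0.22 for Notch2. Dll1 there was -0.06 with second-strand counts, and Hey1 across both times -0.01 with RLE size factors. Without 1 library, the log2 fold changes that changed sign ranged as follows. The range for iDKO over control at 25 DPI was -0.86 to 2.90 for Notch1, -1.28 to 2.77 for Notch2, -0.88 to 2.88 for Notch3, -0.78 to 2.23 for Jag1, -0.66 to 2.47 for Jag2, -1.03 to 2.21 for Dll1, -0.41 to 1.37 for Rbpj, -1.62 to 0.30 for Hey1 and -1.71 to 0.63 for Ivl. The range at 52 DPI was -0.69 to 0.79 for Notch1, -0.76 to 1.04 for Notch2, -1.13 to 2.10 for Notch3, -0.14 to 0.06 for Jag1, -0.07 to 0.22 for Rbpj and -0.43 to 0.89 for Hes1. The range for the difference between the times was -2.80 to 0.98 for Notch1, -2.53 to 1.54 for Notch2, -2.18 to 1.86 for Notch3, -2.27 to 0.76 for Jag1, -3.19 to 0.05 for Dll1 and -1.30 to 0.50 for Rbpj. The range across both times was -0.25 to 1.05 for Notch1, -0.31 to 1.11 for Notch2, -0.27 to 1.48 for Notch3, -0.31 to 0.76 for Jag1, -0.68 to 0.35 for Jag2, -1.0 to 0.06 for Dll1, -0.11 to 0.56 for Rbpj and -0.18 to 0.44 for Hey1. The range for 52 over 25 DPI was -0.39 to 0.80 for Notch1, -0.54 to 0.72 for Notch2, -0.51 to 1.23 for Notch3, -0.18 to 0.83 for Jag2, -0.34 to 0.71 for Dll1, -0.06 to 0.55 for Rbpj and -0.13 to 0.61 for Hey1. 

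Of 1065 alternatives for single genes, 957 kept their direction and side of the threshold. The cause of each change of sign was not tested. Depth limits Hey1, with 6 to 70 reads per library.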
